A study of Mus musculus with 10 samples.

Results

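The 9 genes Lpin1, Lpin2, Lpin3, Gpam, Agpat2, Agpat3, Dgat1, Dgat2 and Mogat1 encode lipins and acyltransferases on the route to triglyceride. They were chosen by name, and each was read by the probe set with the highest mean signal over all arrays among the probe sets annotated to that symbol alone. The 9 genes had 19 such probe sets, out of 18193 genes with 34945 probe sets. The study measured liver RNA of female mice of 2 inbred strains, DBA/2J (D2) and C57BL/6J (B6), on a diet rich in fat and cholesterol. The fed groups were D2 at 1, 4, 12 and 21 weeks and B6 at 1, 4, 12 and 21 weeks, and each strain had a group at week 0, before the diet. Each of the 10 arrays (Affymetrix Mouse Genome 430 2.0) held RNA pooled in equal amounts from 5 mice, so no array shows the spread between animals, and no strain had a second array at any week. Ages were not given in the labels used here, but age increased together with weeks on the diet, and the 2 cannot be told apart.

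Triglyceride is built on glycerol 3-phosphate. Gpam, the mitochondrial glycerol-3-phosphate acyltransferase, adds a fatty acyl chain to give lysophosphatidate, and acylglycerolphosphate acyltransferases such as Agpat2 and Agpat3 add another to give phosphatidate. The lipins (Lpin1, Lpin2 and Lpin3) are phosphatidate phosphatases that yield diacylglycerol, and Lpin1 also acts in the nucleus as a coactivator of PPAR-alpha and PGC-1alpha in liver. Mogat1 makes diacylglycerol by a separate route from monoacylglycerol. Dgat1 and Dgat2 add the last acyl chain to give triglyceride, which hepatocytes store in lipid droplets or export in very low density lipoprotein.

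Signals were comparable between arrays only after scaling. The 2% trimmed mean of the deposited signal ranged from 56.2 to 89.1 over the 10 arrays, a ratio of 1.59, and was lowest in both week 0 arrays, so arrays were quantile normalised. Correlations between arrays of a strain were 0.957 to 0.982 in D2 and 0.911 to 0.967 in B6. The 3′ to 5′ signal ratio of the control probe sets, a sign of RNA quality, was 1.78 to 2.41 for Actb and 0.675 to 0.730 for Gapdh. Of the 18193 genes, 11059 had a mean above 3.74 on the log2 scale, the median of all probe set means, and were tested. They included 7 of the 9 genes. Lpin3 and Mogat1 lay below that limit. Levels given below are log2(normalised signal + 1.05), differences are on the same scale, and a level of 1 probe set cannot be set against that of another. The number of arrays limits the precision. The arrays of the different weeks served as replicates, so the p-values measure the spread between these arrays. In the strain fit, which pairs the arrays by week, that spread is the one of D2 minus B6 from week to week.

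Lpin1 was far lower in D2 than in B6 livers. Its level was 8.81, 7.74, 6.68, 8.38 and 6.41 in D2 at weeks 0, 1, 4, 12 and 21, against 11.17, 9.02, 9.64, 11.02 and 10.26 in B6. The highest D2 array, at week 0, lay below the lowest B6 array, at week 1, so the strains did not overlap. As normalised signals these were 447, 212, 101, 332 and 84.1 in D2, against 2307, 518, 794, 2076 and 1228 in B6. The mean was 7.60 ± 1.04 in D2 and 10.22 ± 0.91 in B6 (SD, n = 5 arrays each). With week as a block, the difference was −2.62 ± 0.30 (SE, 95% confidence interval −3.32 to −1.92), a 6.14-fold lower signal in D2, with an adjusted p of 0.00202 in limma. Whether the probes match the D2 sequence as they match that of B6 was not examined. D2 minus B6 was −2.36, −1.28, −2.96, −2.64 and −3.85 in week order, so D2 was lower at all 5 weeks and the gap was narrowest at week 1 and widest at week 21. Among the 11059 genes, this was number 43 by size and number 21 among those lower in D2. In the same fit 7.98% of genes passed, 4.07% passed with a lower level in D2, 11.2% were lower in D2 at all 5 weeks, and 4.13% had all 5 D2 arrays below all 5 B6 arrays.

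The other Lpin1 probe set (1418288_at beside the chosen 1426516_a_at) gave 8.75, 7.84, 6.84, 8.83 and 6.23 in D2, against 10.79, 8.63, 9.01, 10.68 and 9.82 in B6. It was lower in D2 at all 5 weeks as well, with a mean difference of −2.09, though its highest D2 array (week 12) exceeded its lowest B6 array (week 1). Both probe sets followed the weeks alike within a strain. In D2, week 21 was lowest by both and week 4 next, and in B6 week 1 was lowest by both and week 4 next. The chosen probe set put the D2 weeks in the order 0, 12, 1, 4 and 21 from high to low, and the B6 weeks in the order 0, 12, 21, 4 and 1. With 1 array at each point, neighbours in these orders could not be tested. Among all genes tested, the standard deviation of Lpin1 over the 5 arrays of a strain was at percentile 98.7 in D2 and 95.8 in B6.

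**Figure D1:**
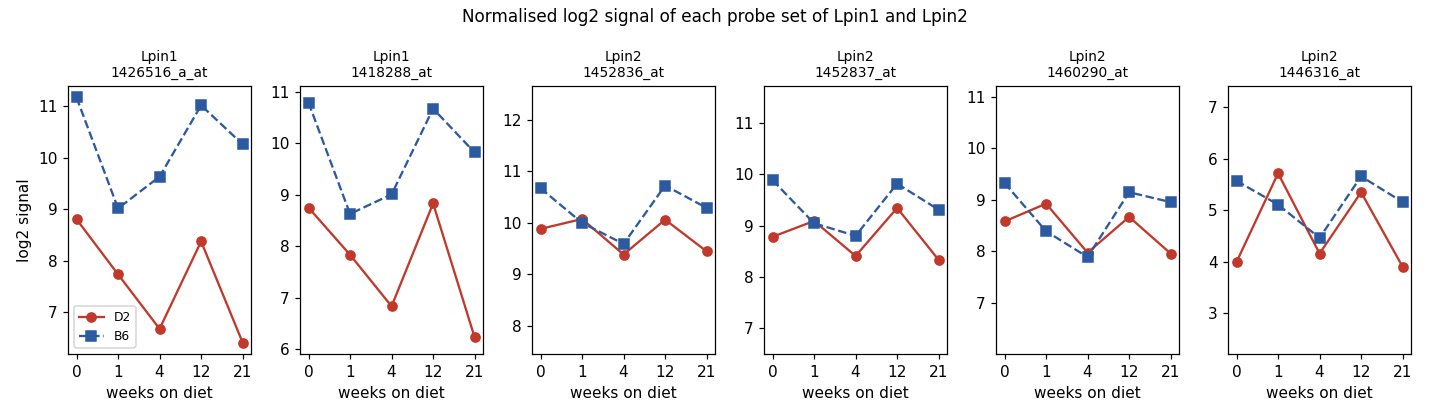
Normalised log2 signal (vertical axis) of the 2 Lpin1 and 4 Lpin2 probe sets against weeks on the diet (horizontal axis, weeks spaced evenly, not to scale), with D2 as red circles and solid lines and B6 as blue squares and dashed lines, 1 pool of 5 mice per point. Each panel spans the same number of log2 units. Both Lpin1 probe sets were lower in D2 at all 5 weeks, and the Lpin2 probe sets were lower in D2 at 3 or 4 of 5 weeks.

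Lpin1 lies on mouse chromosome 12 (chr12:16535669-16653903, minus strand, GRCm38.p6) and Lpin2 on chromosome 17 (chr17:71183532-71249818, plus strand). Because Lpin1 passed the strain test, the stretch around its annotated start is shown, beside that of Lpin2, which was added after the values were seen as the other lipin above the filter. Both are RefSeq sequences of C57BL/6J on GRCm38.p6, read 5′ to 3′ along the gene, from 250 bases before to 50 bases after an annotated start. The D2 sequence was not used here. The Lpin1 window is chr12:16610917-16611216 and lies inside the annotated span of the gene, and the Lpin2 window shown is chr17:71183282-71183581. Capitals mark matches to the searched motifs.
Lpin1: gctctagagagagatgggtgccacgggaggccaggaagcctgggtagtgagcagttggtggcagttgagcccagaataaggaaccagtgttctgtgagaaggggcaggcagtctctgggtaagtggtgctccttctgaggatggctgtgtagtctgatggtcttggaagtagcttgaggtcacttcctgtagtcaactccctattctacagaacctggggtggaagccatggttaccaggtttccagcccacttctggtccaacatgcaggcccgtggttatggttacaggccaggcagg
Lpin2: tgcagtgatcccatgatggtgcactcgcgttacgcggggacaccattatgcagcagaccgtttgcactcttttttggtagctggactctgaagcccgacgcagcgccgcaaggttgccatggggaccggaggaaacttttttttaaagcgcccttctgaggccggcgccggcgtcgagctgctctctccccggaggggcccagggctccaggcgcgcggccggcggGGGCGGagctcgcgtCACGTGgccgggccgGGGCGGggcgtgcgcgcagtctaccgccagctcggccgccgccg
Both strands were searched for the CCAAT box and for an E-box with the letters CACGTG. The GC box was searched by its letters on either strand as GGGCGG, and the D-box in the forms TTATGTAA and TTACGTAA. The E-box and D-box form TTACGTAA read the same on both strands, and no motif contained another. Of the 32851 promoter windows of the same length, 7.15% held the E-box, 37.4% the CCAAT box, 35.7% the GC box, 0.938% TTATGTAA and 0.119% TTACGTAA. The Lpin1 window held none of these letters. It was the only Lpin1 window at hand and does not reach the 5′ end of the annotated gene, at position 16653903, which was not searched. The Lpin2 window shown held the E-box starting 9 bases before the start site and the GC box at 2 places, starting 24 bases before it and 6 bases after it. Of the other Lpin2 windows, chr17:71183728-71184027 held the GC box at 1 place and chr17:71204404-71204703 the CCAAT box at 3 places. Neither held the E-box. Windows were at hand for 7 of the 9 genes, 11 in all. Besides Lpin2, the E-box occurred in 1 of the Lpin3 windows, starting 22 bases after the start site. A match describes these letters only.

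Lpin2, known as a main lipin of liver, differed less. It stood at 9.88, 10.07, 9.38, 10.06 and 9.45 in D2, against 10.67, 9.999, 9.59, 10.72 and 10.29 in B6. D2 was lower at 4 of 5 weeks and slightly higher at week 1, and the strains overlapped. The difference was −0.49 ± 0.14 (SE, 95% confidence interval −0.81 to −0.16) and missed the threshold of 0.05 in limma (adjusted p = 0.0780). The 3 other Lpin2 probe sets gave mean differences of −0.58, −0.32 and −0.57. On the deposited scale Lpin2 passed (adjusted p = 0.0210), and it passed too without either week 1 array (adjusted p = 0.0334 at most).

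Lpin3 was read at 3.72, 3.81, 2.61, 3.39 and 4.37 in D2, against 2.75, 3.77, 4.19, 3.59 and 4.15 in B6. These values lay around the filter limit, the strains overlapped, and D2 was lower at 2 of 5 weeks. When all 18193 genes were fitted, its difference was −0.11 ± 0.38 (SE, adjusted p = 0.925 in limma). The 3 lipins thus gave 1 call between the strains, that of Lpin1.

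**Figure D2:**
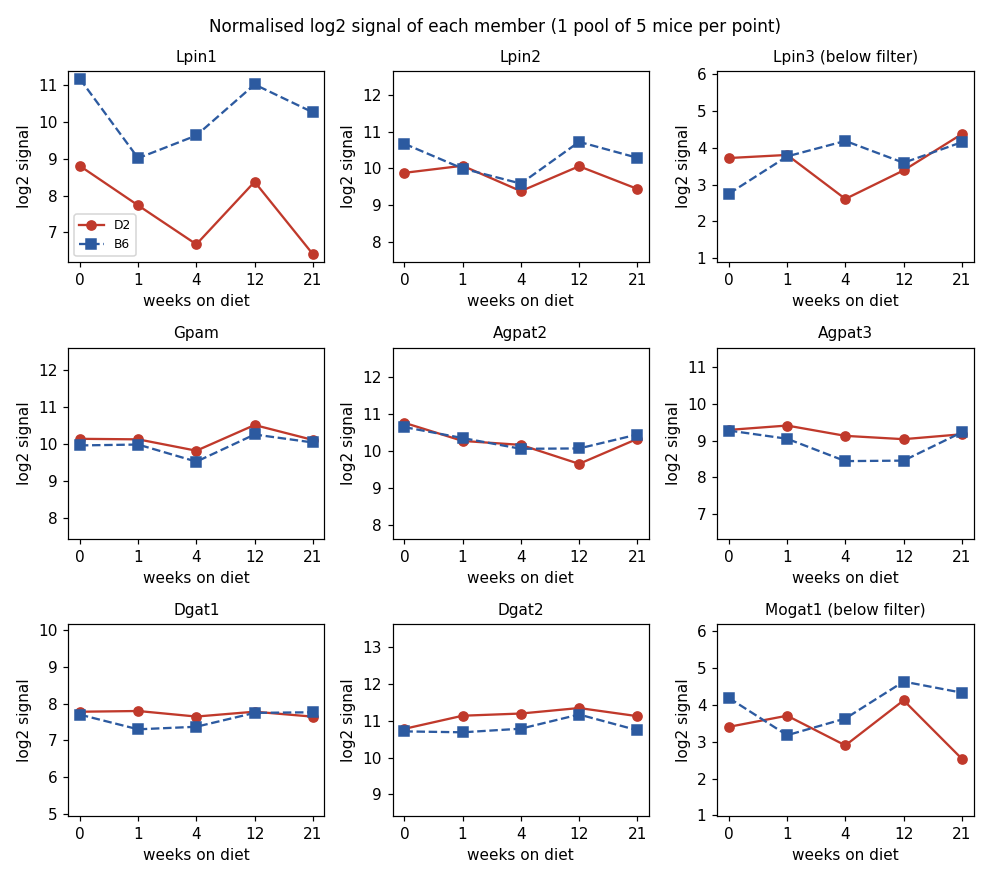
Normalised log2 signal (vertical axis) of the 9 genes against weeks on the diet (horizontal axis, weeks spaced evenly, not to scale), with D2 as red circles and solid lines and B6 as blue squares and dashed lines, 1 pool of 5 mice per point. All panels span the same number of log2 units. The Lpin1 lines stand apart at all 5 weeks, and those of Gpam, Agpat2 and Dgat1 lie close together.

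For the 5 tested enzymes before and after the lipin step, the fitted strain differences were smaller, from −0.08 to 0.32, and none passed. Of all genes tested, 7.98% passed. Gpam, which opens the pathway, was 10.14, 10.13, 9.82, 10.51 and 10.11 in D2, against 9.96, 9.98, 9.52, 10.26 and 10.04 in B6. D2 was higher at all 5 weeks, as were 11.6% of all genes tested, but the ranges overlapped. The difference of 0.19 ± 0.07 (SE, 95% confidence interval 0.03 to 0.35) did not pass (adjusted p = 0.148 in limma). By its other probe set, D2 was lower at 2 of 5 weeks.

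Agpat2, whose loss causes lipodystrophy in humans and mice, was 10.77, 10.27, 10.17, 9.65 and 10.33 in D2, against 10.65, 10.35, 10.06, 10.07 and 10.45 in B6. The strains crossed, with D2 lower at 3 of 5 weeks, and the difference was −0.08 ± 0.09 (SE, 95% confidence interval −0.29 to 0.14, adjusted p = 0.652 in limma). Agpat3 was 9.29, 9.41, 9.13, 9.04 and 9.17 in D2, against 9.27, 9.05, 8.44, 8.45 and 9.22 in B6. The strains were nearly level at weeks 0 and 21, and B6 was lower at weeks 1, 4 and 12. Its difference was 0.32 ± 0.13 (SE, 95% confidence interval 0.03 to 0.61, adjusted p = 0.172 in limma). Its other probe sets gave 0.04, 0.26 and 0.16, none of which passed.

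Dgat2, the main acyltransferase for newly made fatty acids in liver, came closest to the threshold among the acyltransferases. It was 10.78, 11.14, 11.20, 11.35 and 11.13 in D2, against 10.71, 10.69, 10.79, 11.17 and 10.74 in B6. D2 was higher at all 5 weeks, by the smallest margin at week 0, and the B6 array of week 12 lay above the D2 arrays of weeks 0, 1 and 21, so the ranges overlapped. The difference was 0.30 ± 0.08 (SE, 95% confidence interval 0.12 to 0.48, adjusted p = 0.0573 in limma). Over the 8 fed arrays alone it passed (adjusted p = 0.0479). By its other probe set, D2 was lower at 1 of 5 weeks.

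Dgat1 was 7.78, 7.80, 7.65, 7.78 and 7.64 in D2, against 7.70, 7.30, 7.37, 7.75 and 7.76 in B6. Its D2 arrays spanned a narrow range, and B6 was lower at weeks 1 and 4. The difference was 0.15 ± 0.11 (SE, 95% confidence interval −0.10 to 0.41, adjusted p = 0.447 in limma), and the suffix of its probe set (1418295_s_at) marks probes that can match more than 1 transcript. Mogat1, below the filter, was 3.41, 3.71, 2.90, 4.13 and 2.54 in D2, against 4.19, 3.18, 3.63, 4.64 and 4.33 in B6. D2 was lower at 4 of 5 weeks with overlapping ranges. In the fit of all 18193 genes its difference was −0.66 ± 0.36 (SE, adjusted p = 0.390 in limma).

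**Figure D3:**
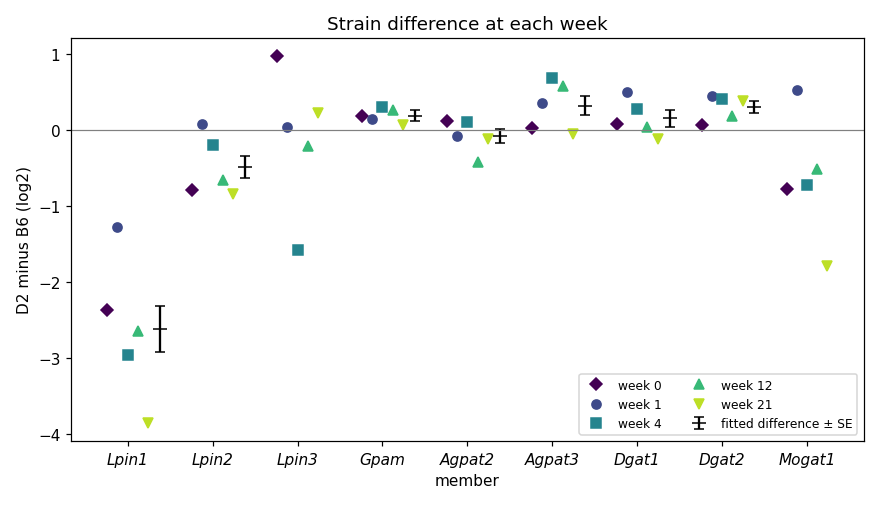
D2 minus B6 in log2 units (vertical axis) for each of the 9 genes (horizontal axis), 1 symbol per week, with the fitted difference and its standard error in black for the 7 genes tested. The 5 Lpin1 points lie between −3.85 and −1.28, and those of Gpam and Dgat2 are all above 0.

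Of the 7 genes tested between the strains, 1 passed after adjustment, beside 882 of all 11059 genes (7.98%). An unadjusted p under 0.05 was found for 5 of the 7, beside 2649 of all 11059 genes. Their median difference was 0.15, against 0.01 for all genes tested, with 4 genes higher and 3 lower in D2. Lpin1 had the largest difference of the 7 in size, and the next, that of Lpin2, was −0.49.

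No gene of the set passed the diet comparison of the 8 fed arrays with the 2 week 0 arrays, in which 72 genes (0.651%) passed by limma. Of the 7 tested, 2 had an unadjusted p under 0.05, Lpin1 and Agpat2, as did 1928 of all 11059 genes. The median change was −0.29, against 0.01 for all genes tested, and 6 of 7 changes were below 0. That sign depended on the scale between arrays. With the arrays as deposited, the median of all genes was 0.52, and Dgat1 (0.43, adjusted p = 0.0279) and Dgat2 (0.63, adjusted p = 0.00899) passed as higher.

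By the chosen probe set, Lpin1 was lower than at week 0 in every fed array. Fed minus week 0 was −1.07, −2.13, −0.43 and −2.40 in D2 at weeks 1, 4, 12 and 21, and −2.15, −1.54, −0.15 and −0.91 in B6. The least distance from week 0 was at week 12 in both strains. The mean over fed arrays was 7.30 ± 0.92 in D2, against 8.81 in its week 0 array, and 9.98 ± 0.86 in B6, against 11.17 in its week 0 array (SD, n = 4 fed arrays each). The fitted change was −1.35 ± 0.53 (SE, 95% confidence interval −2.52 to −0.17) and did not pass (adjusted p = 0.229 in limma). Among all genes tested, 9.9% lay below week 0 in all 8 fed arrays. On the deposited scale 6 of 8 fed arrays were lower for Lpin1. By its other probe set, D2 at week 12 (8.83) was above D2 at week 0 (8.75).

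Agpat2 was also lower than at week 0 in every fed array. Fed minus week 0 was −0.49, −0.60, −1.11 and −0.44 in D2 and −0.30, −0.59, −0.58 and −0.20 in B6. Week 12 of D2 was the lowest array. The change of −0.54 ± 0.17 (SE, 95% confidence interval −0.92 to −0.16) did not pass (adjusted p = 0.147 in limma), and 6 of 8 fed arrays were lower on the deposited scale.

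By the chosen probe set, Dgat2 went the other way in 7 of 8 fed arrays. It differed from week 0 by 0.36, 0.42, 0.57 and 0.34 in D2, and by −0.02, 0.07, 0.46 and 0.03 in B6, where only week 12 stood well above week 0. The change was 0.28 ± 0.13 (SE, 95% confidence interval −0.003 to 0.56, adjusted p = 0.290 in limma), and 21.9% of all genes were above week 0 in 7 or 8 fed arrays. Dgat2 was above week 0 in 5 of 8 fed arrays with median centring and in 8 of 8 on the deposited scale. By its other probe set, B6 at weeks 1, 4 and 21 (10.05, 10.01 and 9.88) was below B6 at week 0 (10.16). The remaining tested genes gave diet changes of −0.33 ± 0.27 for Lpin2 (SE, adjusted p = 0.548), −0.29 ± 0.21 for Agpat3 (adjusted p = 0.484), −0.11 ± 0.14 for Dgat1 (adjusted p = 0.722) and −0.004 ± 0.19 for Gpam (adjusted p = 0.993), all in limma. Agpat3 was lower in 7 of 8 fed arrays, but in 5 of 8 with median centring and 2 of 8 on the deposited scale, and in B6 it differed from week 0 by −0.83 and −0.82 at weeks 4 and 12. Its other probe sets gave diet changes of −0.33, −0.83 and −0.72, none of which passed. In the fit without a filter, Lpin3 changed by 0.50 ± 0.47 (adjusted p = 0.682) and Mogat1 by −0.17 ± 0.48 (adjusted p = 0.909).

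**Figure D4:**
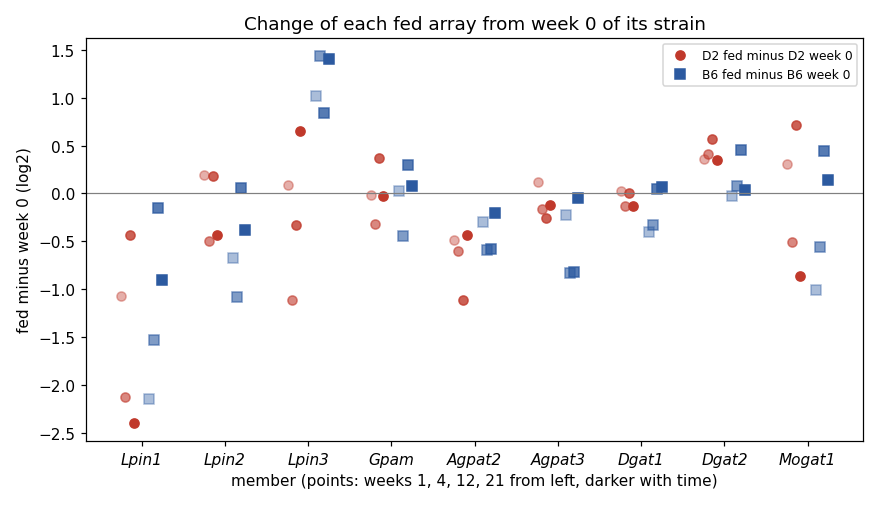
Change of each fed array from the week 0 array of its strain in log2 units (vertical axis) for the 9 genes (horizontal axis), with D2 as red circles on the left and B6 as blue squares on the right, and weeks 1, 4, 12 and 21 from left to right and from pale to dark. All 8 points of Lpin1 and of Agpat2 are below 0, and 7 of 8 points of Dgat2 are above 0.

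The diet change was next taken within each strain and compared between them. None of the 7 genes passed within D2 or within B6, where 0.118% of all genes passed in either case in limma. At an unadjusted p under 0.05 there were 2 in D2 (Agpat2 and Dgat2) and 0 in B6, beside 1263 of all 11059 genes in D2 and 1392 in B6. Lpin1 changed by −1.51 ± 0.79 in D2 (SE, adjusted p = 0.517) and by −1.19 ± 0.79 in B6 (adjusted p = 0.540). The difference between these changes was −0.32 ± 1.12 (95% confidence interval −2.83 to 2.20, adjusted p = 0.989 in limma), so the interval spans large differences in either direction. For Dgat2 the changes were 0.42 ± 0.18 in D2 and 0.13 ± 0.18 in B6, with a difference of 0.29 ± 0.25 (SE, adjusted p = 0.924 in limma). For Agpat2 they were −0.66 ± 0.25 in D2 and −0.42 ± 0.25 in B6, with a difference of −0.24 ± 0.35 (SE, adjusted p = 0.954 in limma). None of the 7 genes passed this comparison or had an unadjusted p under 0.05 in it. Of all 11059 genes, 1 passed (0.00904%) and 672 had an unadjusted p under 0.05.

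The trend asked whether levels moved with log2(week) over the 8 fed arrays. None of the 7 genes passed in limma, 0 had an unadjusted p under 0.05, and of all genes 0% passed, with 523 at an unadjusted p under 0.05. The slope of Lpin1 was 0.13 ± 0.15 per doubling of weeks (SE, 95% confidence interval −0.22 to 0.48). Slopes of the others lay between −0.03 and 0.05.

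Other enzymes of the pathway were read from a list of 16 genes, of which 15 were read and 13 passed the filter. Between the strains 2 passed as higher and 1 as lower in D2, beside 882 of all 11059 genes (7.98%), and the list's median was −0.04. Gpat3, a glycerol-3-phosphate acyltransferase of the endoplasmic reticulum, was higher in D2 by 0.88 ± 0.20 (SE, adjusted p = 0.0346 in limma). It ranged from 7.55 to 8.63 in D2 and from 6.61 to 7.80 in B6, and D2 was higher at all 5 weeks. Plpp3, a lipid phosphate phosphatase, was higher by 0.47 ± 0.11 (adjusted p = 0.0422), and Plpp1, of the same family, was lower (−0.67 ± 0.12, adjusted p = 0.0127). Gpat3 did not pass when 1 array of week 0, 1, 4 or 21 was left out, in either strain, with an adjusted p of at most 0.0891. Plpp3 did not pass when any array was left out (at most 0.110), nor Plpp1 when 1 array of week 12 or 21 was (at most 0.0593). By the mean of all its probe sets the Plpp1 difference was −0.43 and did not pass (adjusted p = 0.0909).

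Gpat4, the other microsomal acyltransferase of this step, differed by −0.58 ± 0.17 (SE, adjusted p = 0.0762 in limma). Gpd1, which makes glycerol 3-phosphate, differed by −0.04 ± 0.18 (adjusted p = 0.919). With the diet, 0 of these 13 genes passed and 2 had an unadjusted p under 0.05, a share near that of all genes (1928 of 11059), with a median change of 0.08. Of 18 genes of the phospholipid branch, which draws on the same phosphatidate and diacylglycerol, 16 passed the filter. Cept1, a choline and ethanolamine phosphotransferase, was the single call between the strains, lower in D2 (−0.35 ± 0.07, SE, adjusted p = 0.0226 in limma), and it did not pass when any fed array was left out (adjusted p at most 0.0850). That list's median was 0.10 between the strains and −0.02 with the diet, where 0 genes passed and 3 had an unadjusted p under 0.05, again near the share of all genes.

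Of 14 transcriptional regulators of lipid genes, 13 passed the filter. Between the strains 1 of them passed as higher and 1 as lower in D2, beside 882 of all 11059 genes (7.98%). Ppara, the fatty acid receptor that drives oxidation genes in liver, was higher in D2 by 0.82 ± 0.18 (SE, adjusted p = 0.0333 in limma). It was 10.37, 10.53, 10.42, 10.47 and 10.54 in D2, against 9.74, 9.21, 9.08, 10.44 and 9.76 in B6, so the strains were nearly level at week 12. Pparg, the adipogenic family member, was lower (−0.80 ± 0.15, adjusted p = 0.0157), at 4.15, 4.42, 4.96, 5.43 and 4.46 in D2, against 4.76, 5.15, 5.80, 6.15 and 5.55 in B6. Ppara did not pass when 1 array of week 0, 1, 4 or 21 was left out (adjusted p at most 0.0968), nor Pparg when 1 array of week 12 or 21 was (at most 0.0770). By the mean of all its probe sets the Ppara difference was 0.36 and did not pass (adjusted p = 0.277).

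None of the 13 regulators passed with the diet, and 7 had an unadjusted p under 0.05, beside 1928 of all 11059 genes. Ppargc1a, which encodes PGC-1alpha and is known to induce Lpin1 in fasted liver, was 7.12, 6.81, 6.46, 6.71 and 5.94 in D2, against 7.20, 6.01, 6.02, 6.49 and 6.49 in B6. All 8 fed arrays were below week 0, as were those of 9.9% of all genes tested, and the change was −0.80 ± 0.23 (SE, adjusted p = 0.119 in limma). Any link between Ppargc1a and the Lpin1 values was not tested. Between the strains Ppargc1a differed by 0.17 ± 0.19 (adjusted p = 0.633). Srebf1, the main lipogenic factor, was 9.23, 9.70, 10.68, 9.68 and 10.92 in D2, against 8.02, 10.73, 10.73, 10.59 and 9.24 in B6, all fed arrays above week 0, with a change of 1.66 ± 0.46 (adjusted p = 0.110).

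Since Lpin1 transcript is known to rise on fasting and to vary over the day, 12 fasting and insulin-repressed genes and 17 clock genes were read beside it. The labels used here give neither the time of day nor the feeding state at which livers were taken. Of the fasting genes 11 passed the filter. With the diet 10 of them changed below 0, as did 48.0% of all genes tested. Their median was −0.57, against 0.01 for all genes. Pdk4, a kinase that blocks pyruvate oxidation in fasting, fell by 2.90 ± 0.46 (SE, adjusted p = 0.0234 in limma) and was the only one of them to pass. It was 8.72 in D2 at week 0 and at most 6.41 in fed D2 arrays, and 9.42 in B6 at week 0 and at most 6.96 in fed B6 arrays. It did not pass when the D2 week 0, D2 week 4 or B6 week 0 array was left out (adjusted p at most 0.199). Between the strains the hormone gene Fgf21 was higher in D2 by 2.32 ± 0.29 (adjusted p = 0.00309), and it was the single fasting gene to pass there.

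Of the clock genes 15 passed the filter. Among these, 4 passed as higher and 1 as lower with the diet, beside 72 of all 11059 genes (0.651%). Between the strains 2 passed as higher in D2, beside 882 of all genes (7.98%). With the diet Dbp, a clock output factor, rose by 3.92 ± 0.42 (SE, adjusted p = 0.0140 in limma), Nr1d1 by 2.804 ± 0.39 (adjusted p = 0.0153), Per3 by 2.40 ± 0.35 (adjusted p = 0.0168) and Nr1d2 by 1.65 ± 0.23 (adjusted p = 0.0153), and Arntl fell by 2.46 ± 0.44 (adjusted p = 0.0399). Dbp was 5.97 in D2 at week 0, against 5.58 in B6 at week 0, and at least 7.84 in all fed arrays. None of the 5 passed when the D2 week 0 array was left out (adjusted p at most 0.237), and without the B6 week 0 array Dbp alone passed (at most 0.198 for the others). Arntl did not pass either when the D2 week 1, D2 week 4 or B6 week 21 array was left out (at most 0.0769). Between the strains Nr1d1 (1.16 ± 0.23, adjusted p = 0.0229) and Per3 (0.94 ± 0.22, adjusted p = 0.0392) were higher in D2. Nr1d1 did not pass when 1 array of week 0 or 21 was left out (adjusted p at most 0.0774), nor Per3 when any fed array was (at most 0.113). The part of clock phase or feeding state in the Lpin1 values was not tested.

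**Figure D5:**
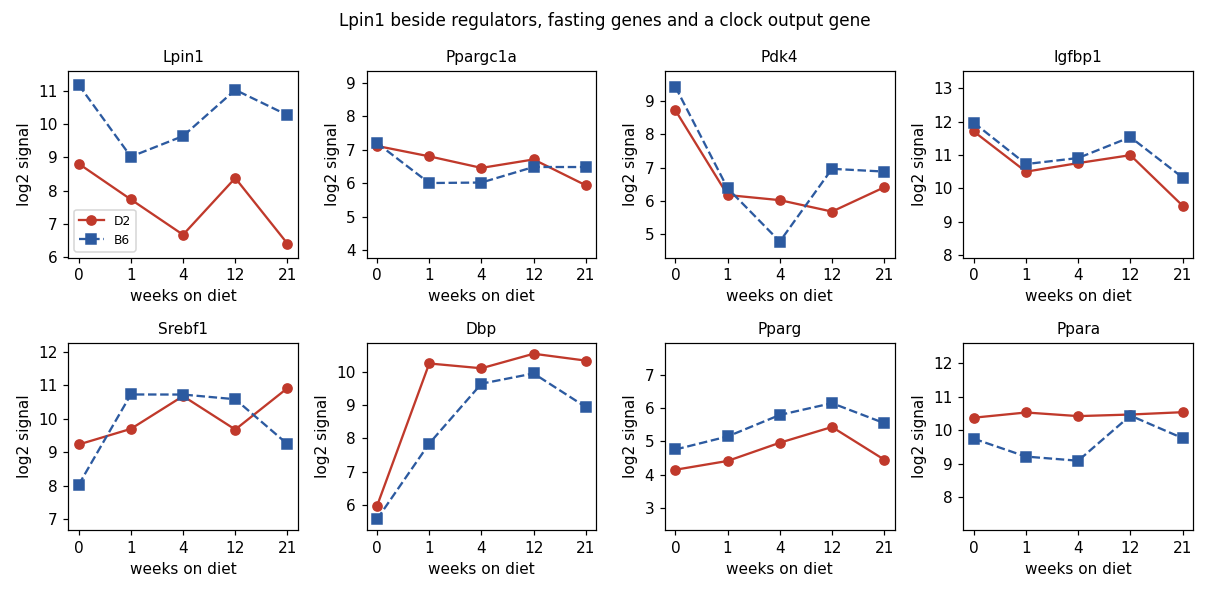
Normalised log2 signal (vertical axis) of Lpin1, 4 regulators (Ppargc1a, Srebf1, Pparg and Ppara), the fasting genes Pdk4 and Igfbp1 and the clock output gene Dbp against weeks on the diet (horizontal axis, weeks spaced evenly, not to scale), with D2 as red circles and solid lines and B6 as blue squares and dashed lines, 1 pool of 5 mice per point. Pdk4 is highest and Dbp lowest at week 0 in both strains, and of the strain differences of these 8 genes that of Lpin1, −2.62, was the largest in size.

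In pooled whole liver, fewer cells of a type and less RNA per cell cannot be told apart, so marker genes were summed as normalised signal. The 8 hepatocyte markers read, all above the filter, summed to 41943 to 43647 in D2 and 41694 to 44121 in B6. Most of that sum came from genes at the top of the quantile-normalised scale, where values are held nearly level (Apoa1 was 13.16 in all 10 arrays), so it does not measure the share of hepatocytes. Lower on the scale, Hnf4a was 10.60 to 11.03 in D2 and 10.61 to 11.14 in B6. Lpin1 is abundant in fat and muscle. Of 6 adipocyte markers read, Plin4 and Fabp4 were above the filter, and Adipoq, Retn, Lep and Cidec were below it. The 2 above it carried most of every sum, so the sums largely follow Plin4 and Fabp4. Sums of the 6 were 153, 288, 145, 139 and 138 in D2 in week order, against 325, 169, 216, 218 and 531 in B6. B6 was thus higher at weeks 0, 4, 12 and 21, and lower at week 1, where the Lpin1 gap was narrowest. That gap was widest at week 21. The part of fat tissue in the Lpin1 values was not tested. Of 6 skeletal muscle markers 1 was above the filter, with sums of 40.1 to 80.0 in D2 and 28.3 to 44.9 in B6. Of 6 pancreas acinar markers 1 was above it, with sums of 258 to 565 in D2 and 108 to 379 in B6. That gene, Cela1, carried the sum and was higher in D2 by 1.95 ± 0.26 (SE, adjusted p = 0.00368 in limma). The other 5, Cpa1, Cela2a, Pnliprp1, Ctrb1 and Cel, were each highest in the B6 week 21 array, at 3.59 to 6.34 on the log2 scale.

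Macrophage markers, 12 of 13 above the filter with Trem2 below it, moved with the weeks. Their sums were 3389, 4216, 2920, 2842 and 4149 in D2, against 3070, 6592, 17733, 3157 and 9537 in B6. The 3 B6 arrays with the higher sums, at weeks 1, 4 and 21, were the 3 with the lower Lpin1 levels. At weeks 0 and 12, where the sums of the strains were alike, Lpin1 differed by −2.36 and −2.64. All 12 macrophage genes had strain differences below 0, as had 47.7% of all genes tested, and 1 of the 12 passed. Stellate cell markers, 7 of 7 above the filter, summed to 1453 to 1858 in D2 and 2014 to 3975 in B6, and 6 of 7 had strain differences below 0. The collagen gene Col1a1 (−3.33 ± 0.59, SE, adjusted p = 0.0141 in limma) and Lrat (−0.60 ± 0.12, adjusted p = 0.0203) were lower in D2. Of all genes tested, 7.98% passed that fit. Col1a1 was 2.03, 4.82, 1.45, 0.87 and 3.68 in D2, below the filter limit of 3.74 except at week 1. The size of its difference thus rests on values near background. Lymphocyte markers, 3 of 7 above the filter, summed to 131 to 176 in D2 and 171 to 955 in B6. The part of these cells in the Lpin1 values was not tested.

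The 3 genes whose levels over the 10 arrays were most like those of Lpin1 were Wdr82 (Pearson r = 0.960), Pigx (0.949) and F5 (0.940). The arrays fall into 2 strains, so these values largely describe the strain gap that the genes share, and they are given as a description. Wdr82 was 7.51, 7.20, 7.14, 7.30 and 7.01 in D2, against 8.11, 7.82, 7.77, 8.01 and 8.05 in B6. As with Lpin1, every D2 array was below every B6 array.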

How the data were processed

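The authors deposited an intensity per probe set, on a linear scale, made with GCOS, per the submitters' processing notes (no version given). The scaling between arrays is not given in the sources used here. Of 45101 probe sets, 64 controls were left out, 34945 had a single gene symbol, 932 several and 9160 none. No matched symbol differed from the one in RefSeq.

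The members, gene lists, markers and tests were chosen with earlier results of these data known. All 9 members are named whatever their values, with up to 4 called genes from each list and Srebf1, Ppargc1a, Pparg, Gpat3, Gpat4, Gpd1, Dbp and Pdk4. The neighbours are the 3 genes of highest correlation with a member that was called.

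Values were quantile normalised and taken as log2(signal + 1.05), where 1.05 is the 10th percentile of what was deposited. Tests used limma 3.58.1 in R 4.3.3 (lmFit, eBayes with trend) over 11059 genes, with Benjamini-Hochberg adjustment and a threshold of 0.05. The strain fit blocked on week, which pairs the strains through the labels (4 residual degrees of freedom). The diet fit had strain as a term (7). The fits within strains and of their difference used 4 group means (6), with the spread of fed arrays standing in for that at week 0. The trend was fitted over fed arrays only, strain included (5). The strain and diet fits were also run on simulated data with independent noise and no week effect shared by the strains. That run cannot show how well weeks serve as replicates. Figures were drawn with matplotlib 3.10.9. Alternatives were the deposited scale, median centring, another pseudocount or floor, other filters, all probe sets of a gene, other variance and design forms, and each array left out. Protein sequences were not used here.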

Additional observations from a re-analysis of the deposited data

How the results depend on the processing

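The Lpin1 strain difference kept its direction and its call under all 21 alternatives, from −2.95 to −2.09 (adjusted p 0.000169 to 0.0150). These 21 were not separate checks of direction. With strains paired by week, dropping the D2 or the B6 pool of week 1 gave −2.95 alike. Dropping the D2 pool, the B6 pool or both at week 0 gave −2.68 each time. Changing the filter, the variance form or the block left the estimate at −2.62, so those settings bear on the call only. The number of the 7 genes called between the strains became 2 on the deposited scale (Lpin1 and Lpin2) and 2 with the 8 fed arrays only (Lpin1 and Dgat2), and was 1 to 2 when 1 array was left out. Without either week 0 array Dgat2 was added, and without either week 1 array Lpin2 was added. With the diet the number became 2 on the deposited scale (Dgat1 and Dgat2). Without week as a block, the fit called Lpin1 too, 1 of 7 genes, and 775 of all genes. In that fit Gpat3 (adjusted p = 0.0595), Plpp3 (0.140), Cept1 (0.0752), Pparg (0.148), Nr1d1 (0.394) and Per3 (0.427) were not called between the strains, while Plpp1, Ppara and Fgf21 were. Directions turned only for changes that were not called, and the cause was not tested. The Agpat2 strain difference ranged from −0.13 to 0.01 with 1 array left out, turning without either week 12 array (0.00684). On the deposited scale the diet change was 0.07 for Lpin2 (0.0686), 0.39 for Gpam, 0.18 for Agpat3 and 0.43 for Dgat1. With arrays centred on their median it was 0.03 for Gpam (0.0330) and 0.07 for Dgat1 (0.0715). By another probe set it was 0.16 for Lpin2, and by the mean of probe sets 0.02003 for Dgat1. With 1 array left out the Gpam diet change ranged from −0.0644 to 0.0656, and the difference of the Lpin1 diet change between the strains from −0.68 to 0.0268, turning without the B6 week 12 array. Over all genes, the diet calls were 4949 higher and 41 lower on the deposited scale (median 0.52), 276 and 37 with median centring (median 0.16), and 46 and 26 as reported. Counts of all genes ranged from 386 to 910 between the strains, 14 to 4990 with the diet, 3 to 248 within D2, 0 to 1946 within B6, 0 to 132 for the difference between the strains, and stayed at 0 for the trend. The strain calls split 208 higher and 403 lower in D2 on the deposited scale, against 432 and 450 as reported. With 1 pool per strain and week, differences between single weeks could not be tested, and Lpin3 and Mogat1 lay too near background for their values to be ordered.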
